A study of Mus musculus with 3 samples.

Results

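The 46 genes described here encode the proteins that copy DNA in S phase and the cyclins, kinase and E2F factors that open that phase. They were chosen by name, not by level, but with earlier results of these data known. All 46 were found among the 22457 genes of each count table. The RNA came from regulatory T cells (Treg cells), taken as primary cells from male adult mice aged 4 months. Treg cells are a kind of CD4 T cell that needs the factor Foxp3 and holds other immune cells in check. Poly(A) RNA was sequenced as 3 libraries, given as technical replicates 1, 2 and 3 of 1 biological replicate, from RNA sheared to a size range of 100 to 300. There was 1 group and no treatment, allele or control, so the data allow levels and differences between libraries but no comparison of conditions. The sources used here do not give strain, tissue, sort or the number of animals. Every SD below measures the spread between libraries of that 1 sample, and every p-value compares those libraries.

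Replication is prepared in G1, when the origin recognition complex (ORC) with Cdc6 and Cdt1 loads the MCM2-7 helicase onto DNA as an inactive ring. Cyclin-dependent kinase and Cdc7 kinase then fire the origins, as Cdc45 and the GINS complex join MCM2-7 to form the active helicase. Polymerase alpha with its primase starts each strand, the RFC clamp loader places the Pcna ring, polymerases delta and epsilon extend, and Fen1 and Lig1 join the Okazaki fragments. Many of these genes are transcribed in late G1 by E2F factors, which the retinoblastoma proteins hold back in resting cells. Mature T cells in the body are mostly at rest and take up replication when stimulated to divide, and Treg cells are known for a larger dividing fraction than conventional CD4 T cells.

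Promoter sequences are shown first because the shared E2F word is the feature that the selection by name did not use. An E2F word was taken as TTTCCCGC, TTTCGCGC, TTTGCCGC or TTTGGCGC on either strand. The first 3 sequences are the 250 bases before the RefSeq start (GRCm38.p6), 5′ to 3′ on the strand of the gene, with E2F words in capitals. Mcm6 (chr1:128359706-128359955, minus strand) and Mcm5 (chr8:75109259-75109508, plus strand) encode helicase subunits and hold overlapping words on both strands. Mcm2 (chr6:88898781-88899030, minus strand), another helicase subunit, holds none, also with the last base of the word left free, and is shown as the contrast.
Mcm6: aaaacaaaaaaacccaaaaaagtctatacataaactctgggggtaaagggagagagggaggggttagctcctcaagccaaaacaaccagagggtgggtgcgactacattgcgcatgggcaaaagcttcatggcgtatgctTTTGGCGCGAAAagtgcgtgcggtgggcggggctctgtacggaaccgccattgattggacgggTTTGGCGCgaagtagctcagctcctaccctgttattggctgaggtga
Mcm5: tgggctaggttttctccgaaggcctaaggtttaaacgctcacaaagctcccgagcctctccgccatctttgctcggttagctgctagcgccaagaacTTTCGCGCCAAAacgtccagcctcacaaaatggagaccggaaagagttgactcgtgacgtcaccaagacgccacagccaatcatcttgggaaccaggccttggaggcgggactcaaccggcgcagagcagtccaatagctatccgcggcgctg
Mcm2: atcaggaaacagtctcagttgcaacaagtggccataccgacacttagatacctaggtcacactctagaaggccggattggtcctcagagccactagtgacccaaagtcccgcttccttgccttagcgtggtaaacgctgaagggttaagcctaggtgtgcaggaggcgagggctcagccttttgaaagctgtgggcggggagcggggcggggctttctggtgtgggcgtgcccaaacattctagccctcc
The next sequences are the word with up to 8 bases on each side, from other licensing genes and from genes of other roles. They show forms of the word in an origin recognition gene, in licensing genes, in the clamp loader and in DNA polymerases.
Orc1: ggttagtgGCGCGAAAagttttct
Cdc6: ggtggagaGCGGGAAAtcgcctgg
Cdt1: actaccttTTTGGCGCcatggcgc
Mcm3 first word: cttccgtgGCGGGAAAacttggga
Mcm3 second word: tgggaagtTTTGGCGCcaag
Mcm7 first word: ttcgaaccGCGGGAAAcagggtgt
Mcm7 second word: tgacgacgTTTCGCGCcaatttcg
Rfc3 first word: tcgcacgcTTTCGCGCtcgcggga
Rfc3 second word: tcgcgctcGCGGGAAAactctact
Pola1: atcacaggGCGCCAAAtgcactcc
Pole2: cggcggtgGCGCCAAAtcgcgaac

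The libraries held 3316275 (1), 3079004 (2) and 2782259 (3) counts. All 7 Treg markers were detected in every library, with Foxp3 at 448, 447 and 407 counts. Levels between libraries are given in CPM, the share of a library's counts multiplied by 1000000, and 3 counts, the limit that a count of 0 allows, equal 0.905, 0.974 and 1.08 CPM. Markers of other cells were uneven. The 11 B cell markers summed to 73.9, 183 and 213 CPM in libraries 1, 2 and 3. Of the 10 that could be tested, 9 differed between libraries by the chi-square test described below, beside 22.7% of all genes tested. The 9 monocyte and macrophage markers summed to 23.8, 91.3 and 41.3 CPM, the 6 dendritic cell markers to 5.73, 20.5 and 11.5 and the 7 erythroid markers to 6.33, 14.0 and 30.9. The defining markers Pax5 (B cells; counts of 0, 1 and 1), Clec9a (dendritic cells) and Klf1 (erythroid cells) were at or near 0, the last 2 at 0 in every library, and the thymocyte genes Rag1, Rag2 and Ptcra were at 0 throughout.

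All 46 replication genes reached 1 CPM in every library, against 10611 of all 22457 genes (47.3%). Their median level was 103 ± 8.33 CPM (SD, n = 3 libraries), against 45.5 ± 0.0897 CPM for the genes detected in every library. Library by library the median was 105, 94.0 and 110 CPM. Together the 46 genes took 23162, 18746 and 18206 counts, which is 0.698%, 0.609% and 0.654% of libraries 1, 2 and 3. Library 1 gave the largest share and library 2 the smallest. A bulk level cannot tell few cells with much RNA of a gene from many cells with little. The genes lay on 15 chromosomes (GRCm38), with 8 of 46 (17.4%) on chromosome 5, which holds 5.62% of coding genes, and 6 (13%) on chromosome 8, which holds 4.66%.

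To set genes against each other, counts were divided by coding length. The median of the replication genes was 209 counts per coding kb, with a range of 16.5 to 837, against 97.2 for detected genes. By this measure 37 of the 46 stood above the median of detected genes. The lowest of all was E2f1, and the highest were Mcm6, Gmnn, Mcm4 and Rfc2.

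**Figure D1:**
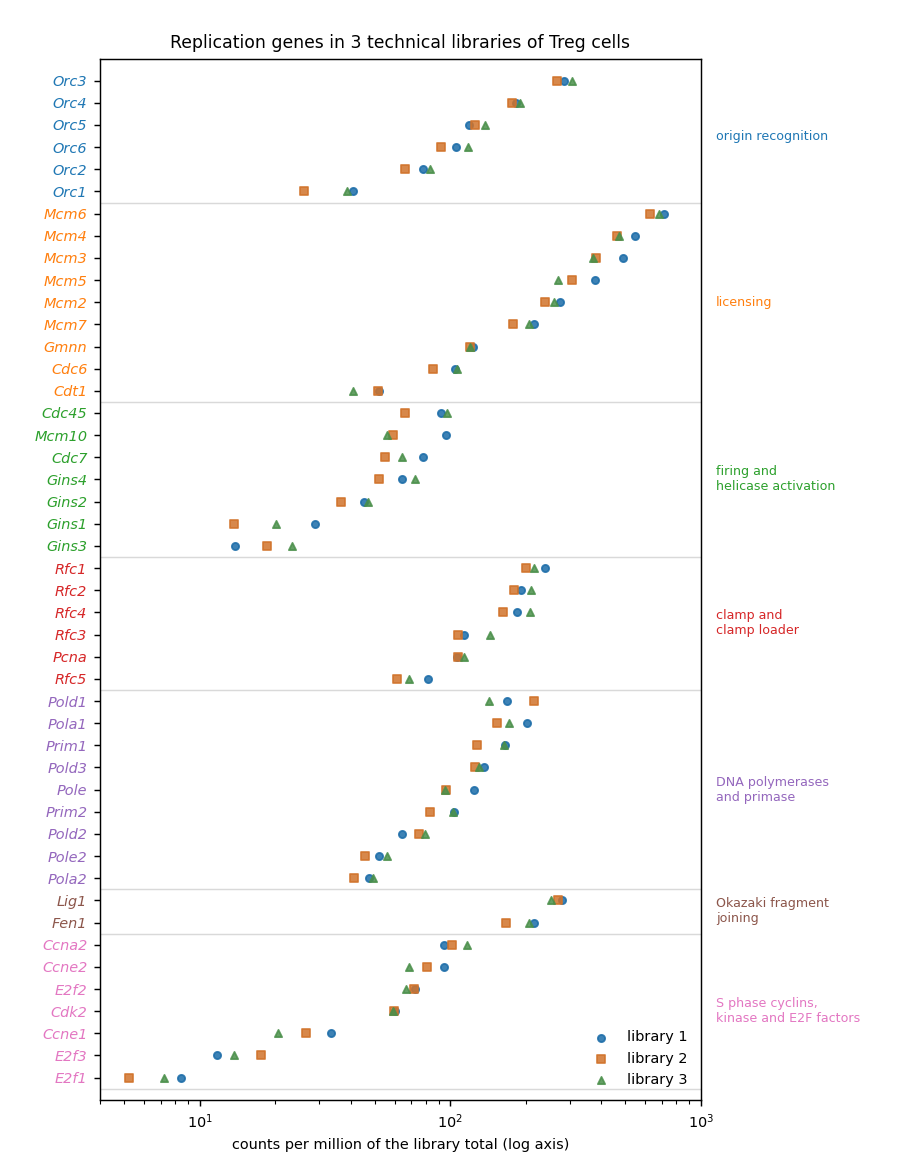
Level of each of the 46 replication genes in libraries 1, 2 and 3, in CPM on a log axis, grouped by role and sorted by mean within each role. The points of one gene lie close together next to the range between genes, which runs on this scale to a mean of 673 CPM for Mcm6 and 6.94 CPM for E2f1.

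Differences between libraries were tested for every gene with 30 or more summed counts by a chi-square test that asks whether its 3 counts follow the library totals. The test allows for counting noise only and does not test which library is highest. It was run with Benjamini-Hochberg adjustment over 10043 genes and a threshold of 0.05. Of the 46 replication genes, 23 (50%) differed between libraries, against 22.7% of all genes tested. The test calls more genes at higher counts, and among the 2851 genes with 582 to 1691 summed counts, the middle range of the replication genes, it called 25.7%. Of the 46 genes, 17 were called and highest in library 1, 1 in library 2 and 5 in library 3. Of all genes tested, 7.61%, 7.03% and 8.04% were called and highest in these libraries. The count of called genes depends on which libraries enter. It was 10 of 46 without library 1, 10 without library 2 and 17 without library 3, beside 13.1%, 15.3% and 9.43% of all genes tested, and none of the 23 was called in every one of these sets.

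A second test set each library against the other 2 by the quasi-likelihood test of edgeR. It takes in the spread between those 2 and assumes that the lone library varies like them. It called 0 of the 46 genes for library 1, 0 for library 2 and 0 for library 3, beside 0.279%, 0.163% and 1.06% of the 10411 genes tested. At an unadjusted p under 0.05 it found 6, 4 and 7 of the 46, beside 4.73%, 4.64% and 9.21% of all genes tested. DESeq2 called next to no genes in any library, of the 46 or of all genes, so it cannot set the 46 apart. The gene nearest to the threshold was Mcm10, higher in library 1 than in the other libraries by 0.76 on the log2 scale (edgeR adjusted p = 0.0636). The chi-square calls of the 46 genes below are past the counting noise that test assumes, and none of them passed this second test. That noise takes reads as independent, which copies of 1 molecule are not.

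The 6 origin recognition genes encode the complex that marks origins. Orc3 had 947, 824 and 850 counts in libraries 1, 2 and 3, Orc4 607, 542 and 527, Orc5 394, 386 and 383, and Orc6 349, 283 and 329. Orc2 had 257, 203 and 232 counts. Orc1, the largest subunit and an ATPase, was the scarcest, with 136, 80 and 108. As levels in CPM, 5 of the 6 were highest in library 3 and Orc1 in library 1, an order that held under every scaling tried.

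Per coding length ORC was uneven. Orc4 stood at 430 counts per coding kb, Orc6 at 408, Orc3 at 407, Orc5 at 297, Orc2 at 133 and Orc1 at 42.9. Orc4, Orc6 and Orc3 could not be ordered, since neighbouring intervals of counting error overlapped. The ratio of Orc4 to Orc1 was 10.04 ± 2.39 (SD, n = 3), and 2.41 when union exon length replaced coding length, so its size rests on the length used. Per exon kb Orc3 at 144 and Orc6 at 130 stood above Orc4 at 74.9. Between libraries, Orc1 (35.3 ± 8.12 CPM, adjusted p = 0.019 by the chi-square test) and Orc6 (105 ± 13.2 CPM, adjusted p = 0.0379) differed, and neither was called without library 2, nor Orc6 without library 3 or with TMM scaling. Orc2 shares 29.8% of its exon length with Nif3l1 on the opposite strand, so its count is uncertain.

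Licensing genes had the highest median of the 7 roles, 446 counts per coding kb. The helicase subunit Mcm6 (chromosome 1, 128331590 to 128359664, minus strand) had 2360, 1935 and 1891 counts, the highest of all 46 in each library. Mcm4 had 1817, 1426 and 1314, Mcm3 had 1628, 1175 and 1030, and Mcm5 had 1258, 939 and 749. Mcm2 had 908, 739 and 721 counts and Mcm7 had 715, 547 and 573. All 6 subunits were highest in library 1, also under every scaling tried. Their sum was 2619 CPM in library 1, 2196 in library 2 and 2256 in library 3.

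The helicase contains equal numbers of its 6 subunits, but their counts per coding kb were not equal. Mcm6 stood at 837, Mcm4 at 587, Mcm3 at 524, Mcm5 at 446, Mcm2 at 291 and Mcm7 at 284. This order was the same in every library, and only Mcm2 and Mcm7 had overlapping intervals. Mcm6 exceeded Mcm7 by a ratio of 2.95 ± 0.12 (SD, n = 3), and by 3.20 per exon length, where Mcm2 at 113 per kb was the lowest. Mcm7 shares 51.8% of its coding 31-mers with the pseudogene Gm5487, so its count is uncertain.

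Between libraries, Mcm3 (414 ± 66.6 CPM) and Mcm5 (318 ± 56.2 CPM) gave the smallest chi-square p-values of the 46, with adjusted p = 5.17e-13 and adjusted p = 8.4e-12. Mcm4 (adjusted p = 2.52e-05), Mcm6 (0.00284) and Mcm7 (0.0151) also differed by the chi-square test, and Mcm2 did not pass (adjusted p = 0.0993). Without library 1, none of these 5 was called, nor were Mcm6 and Mcm7 without library 2. In the edgeR test Mcm5 was higher in library 1 than in the others by 0.42 on the log2 scale and Mcm3 by 0.40, each with adjusted p = 0.556.

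Of the loading factors, Cdc6 had 348, 262 and 297 counts and Cdt1 173, 158 and 114. Geminin (Gmnn), which binds Cdt1 and blocks loading after S phase has begun, had 409, 370 and 335 counts. Geminin was steady between libraries at 121 ± 1.76 CPM. Per coding kb it exceeded Cdt1 with 601 against 88.8, a ratio of 6.77 ± 0.91 (SD, n = 3), or 5.37 per exon length. None of the 3 passed the chi-square test. Cdc6 shares 26.5% and Gmnn 12.1% of their coding 31-mers with pseudogenes.

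**Figure D2:**
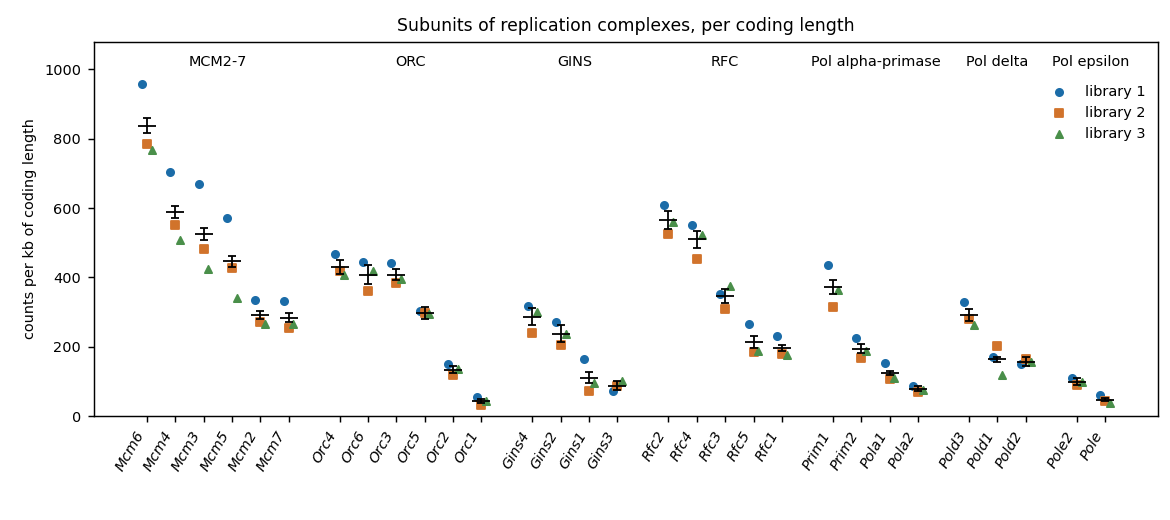
Counts per kb of coding length for the subunits of 7 replication complexes, in unscaled counts of libraries 1, 2 and 3 (points) with their mean (bar) and its exact 95% Poisson interval. Subunits of one complex spread from 837 for Mcm6 to 284 for Mcm7 in the helicase and from 430 for Orc4 to 42.9 for Orc1 in ORC.

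The genes of origin firing had a median of 119 counts per coding kb. Of the 7, 5 passed the chi-square test, beside 22.7% of all genes tested, and of these Gins4 did not pass with TMM scaling. Mcm10 (chromosome 2, 4989714 to 5012791, minus strand) had 318, 182 and 155 counts, or 70.2 ± 22.3 CPM, and stood highest in library 1 without overlap in counting error (adjusted p = 2.11e-08). Cdc45, a part of the active helicase, had 306, 203 and 271 counts, lowest in library 2 (adjusted p = 0.000631). Cdc7, the kinase that phosphorylates MCM proteins, had 258, 169 and 179 counts (adjusted p = 0.0118). Mcm10 was not called without library 1, Cdc45 not without library 2, and Cdc7 not without library 1 or library 2.

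The GINS complex also contains equal numbers of its 4 subunits. Gins4 had 213, 160 and 201 counts, Gins2 150, 113 and 131, Gins1 96, 42 and 56, and Gins3 46, 57 and 65. Gins1 varied more than any other of the 46 genes, with 20.9 ± 7.68 CPM, a coefficient of variation of 36.8%. Gins1 (adjusted p = 0.00168) and Gins4 (adjusted p = 0.0359) differed between libraries by the chi-square test. Their highest levels were in library 1 for Gins1 and in library 3 for Gins4. Gins1 was not called without library 1 or library 2, and Gins4 not without library 2 or library 3, nor with TMM scaling.

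Per coding kb, Gins4 stood at 286, Gins2 at 237, Gins1 at 110 and Gins3 at 86.4. Gins1 and Gins3 had overlapping intervals and changed places between libraries. Per exon kb Gins1 at 42.7 stood above Gins2 at 32.1. The ratio of Gins4 to Gins3 was 3.31 ± 0.95 (SD, n = 3), and 6.86 per exon length. The exons of Gins2 overlap those of Gse1 on the opposite strand over 67.3% of their length.

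The clamp Pcna, a ring that holds the polymerases on DNA, had 353, 332 and 317 counts and was steady at 109 ± 3.99 CPM. Of its coding 31-mers, 75% are shared with a pseudogene, Pcna-ps2, that also has a row in the tables, so its level is uncertain. In the clamp loader, Rfc1 had 796, 618 and 603 counts, Rfc2 638, 551 and 587, Rfc4 613, 502 and 581, Rfc3 376, 330 and 401 and Rfc5 271, 188 and 190. As levels in CPM all 5 were lowest in library 2, while Rfc1 and Rfc5 were highest in library 1 and Rfc2, Rfc3 and Rfc4 in library 3. By the chi-square test Rfc3 (adjusted p = 0.00116), Rfc4 (0.00284), Rfc1 (0.0204) and Rfc5 (0.0343) differed. Rfc1 and Rfc5 were not called without library 1 or library 2, Rfc4 not without library 2 or library 3, and Rfc3 not without library 3.

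Rfc1 is the large subunit of the loader and the other 4 are small. Per coding length Rfc2 stood at 565 counts per coding kb, Rfc4 at 509, Rfc3 at 346, Rfc5 at 213 and Rfc1 at 196, in the same order in every library. Rfc5 and Rfc1 had overlapping intervals. The ratio of Rfc2 to Rfc1 was 2.89 ± 0.28 (SD, n = 3), but it turned round to 0.841 when union exon length was used, so its direction is not settled. Per exon kb Rfc1 stood at 112, Rfc2 at 93.9, Rfc3 at 102, Rfc4 at 369 and Rfc5 at 46.3. Rfc5 shares 35.9% of its coding 31-mers with a pseudogene.

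Among the polymerases, Pola1, the catalytic subunit of polymerase alpha, had 673, 473 and 477 counts, and its partner Pola2 157, 127 and 137. The primase subunits Prim1 and Prim2 had 548, 395 and 455 and 343, 255 and 285 counts. Pola1 (adjusted p = 0.000237) and Prim1 (adjusted p = 0.0019) differed between libraries by the chi-square test, both highest in library 1. Pola1 was not called without library 1, nor Prim1 without library 2. Per coding kb the order was Prim1 at 372, Prim2 at 194, Pola1 at 123 and Pola2 at 78, in every library and with no overlapping intervals. Prim1 exceeded Pola2 by a ratio of 4.77 ± 0.27 (SD, n = 3), or 7.12 per exon length. Per exon kb Pola1 at 61.4 stood above Prim2 at 49.6, so the order of those 2 rests on the length used.

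Polymerase delta, which copies the lagging strand, held the exception among the called genes. Pold1, its catalytic subunit, had 561, 667 and 396 counts, or 176 ± 37.6 CPM, and was the only called gene of the 46 that was highest in library 2 (chi-square adjusted p = 4.36e-09). It was not called without library 2 (adjusted p = 0.0537). Its partners Pold2, with 212, 231 and 220 counts, and Pold3, with 454, 387 and 364, did not pass the test. Polymerase epsilon, which copies the leading strand, had 414, 296 and 266 counts for its catalytic subunit Pole and 173, 141 and 156 for Pole2. Pole was highest in library 1 (adjusted p = 0.00271), was not called without it, and stood at 47.5 counts per coding kb, below 99.1 for Pole2.

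Of the genes that join Okazaki fragments, the ligase Lig1 had 925, 826 and 705 counts, a level of 267 ± 12.8 CPM that did not pass the chi-square test. The flap nuclease Fen1 had 719, 516 and 576 counts and did (adjusted p = 0.000384), lowest in library 2, and was not called without that library. All of its coding 31-mers also lie in the antisense transcript Gm10143, and without strand information its reads cannot be told apart from that transcript.

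The regulators of S phase entry included the scarcest of the 46 genes. Cyclin A2 (Ccna2), which acts in S and G2, had 313, 313 and 324 counts. Cyclins E2 and E1 (Ccne2 and Ccne1), which act with Cdk2 at the start of S phase, had 312, 248 and 190 and 111, 82 and 57 counts. Both cyclin E genes differed between libraries by the chi-square test (adjusted p = 0.0142 for Ccne2 and 0.0421 for Ccne1). Their levels were highest in library 1 and lowest in library 3, and neither gene was called without library 1 or library 3. Cdk2, with 200, 183 and 165 counts, was the steadiest of the 46 genes, at 59.7 ± 0.546 CPM.

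The activator E2F genes were unequal. E2f2 had 240, 220 and 185 counts, E2f3 39, 54 and 38, and E2f1 28, 16 and 20. Per coding kb E2f2 stood at 162, E2f3 at 31.9 and E2f1 at 16.5, with exact 95% Poisson intervals of 150 to 175, 26.6 to 37.8 and 12.7 to 21.1 that did not overlap. None of the 3 passed the chi-square test between libraries.

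**Figure D3:**
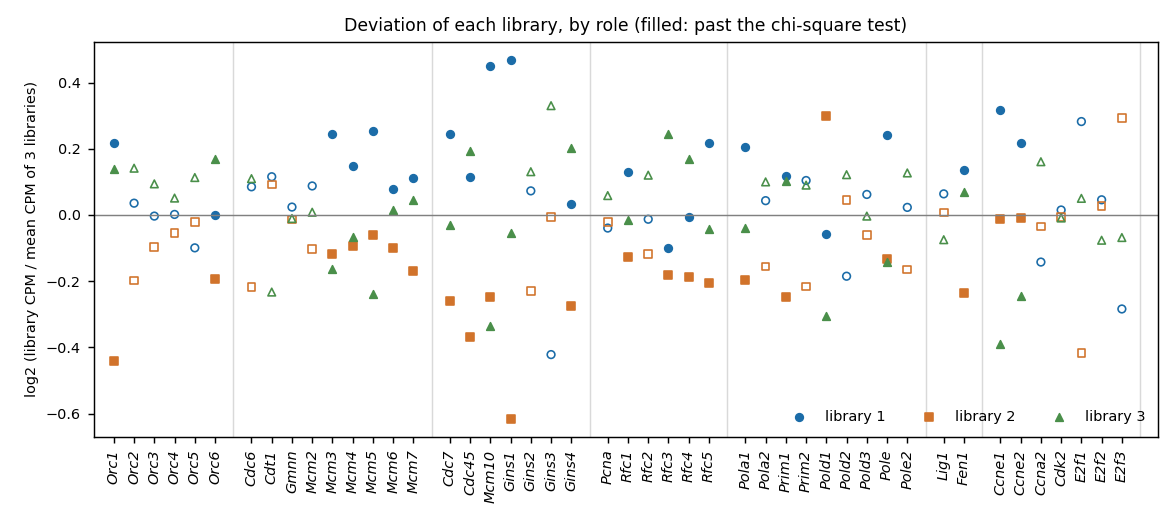
Log2 of each library's CPM over the mean CPM of the 3 libraries, for the 46 genes in order of role; filled points mark genes past the chi-square test between libraries. Circles of library 1 are on top for all 6 of Mcm2 to Mcm7, triangles of library 3 for 5 of the 6 Orc genes, and Pold1 is the only filled gene with library 2 on top.

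Counting all 46 genes, called or not, 26 were highest in library 1, 2 in library 2 and 18 in library 3, while of all genes tested 30% were highest in library 1, 30.7% in library 2 and 39.3% in library 3. The split moved with the scaling. When libraries were scaled to the total over genes under 0.5 counts per coding base, a setting tried because 96.9% of the 97 genes with 1.8 or more counts per coding base were highest in library 3, the split became 20, 4 and 22, beside 24.8%, 30.7% and 44.4% of all genes. Of the 46 genes, 25 were then called, with 14 called and highest in library 1, 1 in library 2 and 10 in library 3. Of all genes tested, 24.3% were then called, with 5.7%, 7.2% and 11.5% called and highest in libraries 1, 2 and 3. Under TMM scaling the split of the 46 was 27, 2 and 17, beside 33.7%, 33.1% and 33.2% of all genes, with 21 called, beside 22% of all genes.

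The libraries in which replication genes stood high also differed in other cells. B cell markers were lowest in library 1, where the replication sum was highest (6984 CPM, against 6088 in library 2 and 6544 in library 3). The monocyte and macrophage and the dendritic cell sums, given above, were lowest in library 1 and highest in library 2, where the replication sum was lowest. B cell and erythroid sums were highest in library 3. That library also had the highest median of the replication genes, 110 CPM, against 105 in library 1 and 94.0 in library 2. Which of libraries 1 and 3 stood higher thus depends on whether the sum or the median is used. The part of the cell markers in the differences was not tested.

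**Figure D4:**
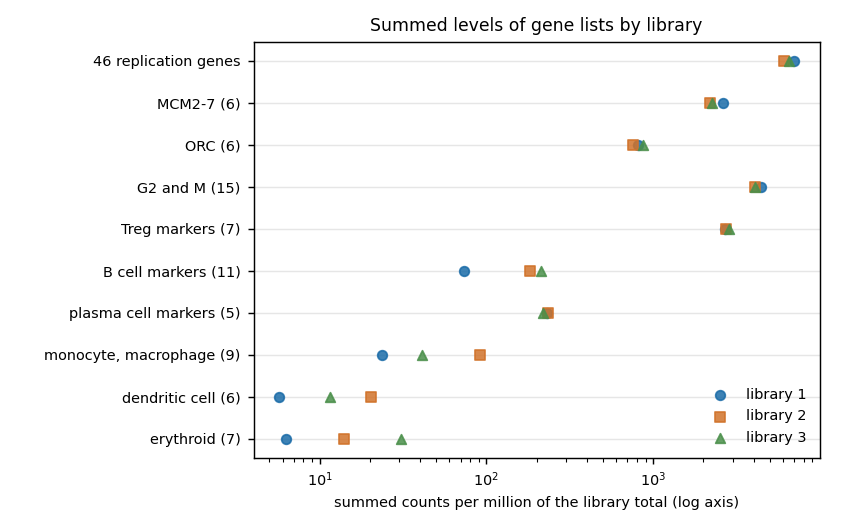
Summed CPM of gene lists in libraries 1, 2 and 3 on a log axis, with the number of genes in brackets. The replication genes span 6088 to 6984 CPM and the B cell markers 73.9 to 213 CPM, with library 1 at opposite ends of the 2 lists.

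Other genes of the same processes were measured in 4 further lists. Of 37 other fork and origin genes, 13 (35.1%) differed between libraries by the chi-square test, beside 22.7% of all genes tested, and 10 of them were highest in library 1. Per coding kb the list was led by Rpa1, which coats single-stranded DNA (951), and Chtf8 of the alternative clamp loader (945). The histone chaperone subunit Ssrp1 followed (752), and the list's lowest were Ticrr (15.6), Recql4 (9.59) and Mcm9 (9.30). Chtf8 shares 58.3% of its coding 31-mers with other genes, so its count is uncertain. Wdhd1, which ties the helicase to polymerase alpha, had 463, 285 and 313 counts (adjusted p = 6.27e-06), and Dtl, which marks Cdt1 for destruction, had 295, 180 and 180 (adjusted p = 0.000176). Both stood high in library 1. The list's median was 126 counts per coding kb.

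The 14 genes of deoxynucleotide supply were denser, with a median of 500 counts per coding kb, against 97.2 for detected genes. Of them 4 (28.6%) differed between libraries by the chi-square test, near the 22.7% of all genes. Samhd1, which breaks deoxynucleotides down, led with 3281, 3344 and 3028 counts. Ribonucleotide reductase, which makes deoxynucleotides, had 1648, 1455 and 1478 counts for its small subunit Rrm2 and 2066, 1601 and 1689 for its large subunit Rrm1. Rrm1 was highest in library 1 (chi-square adjusted p = 2.72e-06) and Rrm2 in library 3 (0.0325).

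Of 30 regulators of the step into S phase, 28 had counts enough for the chi-square test and 8 (28.6%) differed, near the 22.7% of all genes. Of the 8, 2 were highest in library 1 and 6 in library 3, namely Ccnd2, Cdk4, Cdkn2d, Cdkn1b, Myc and Tfdp1. Tfdp1 was near the threshold (chi-square adjusted p = 0.0444) and shares 69.6% of its coding 31-mers with other genes, so its count is uncertain. Cyclin D2 (Ccnd2), with 1514, 1487 and 1458 counts, and Cdk4, with 915, 782 and 847, were the densest. Cyclin D1 (Ccnd1) had 1, 4 and 2 counts and the inhibitor Cdkn1c 3, 2 and 0, while cyclin D3 (Ccnd3) had 397, 374 and 335. Rbl2, the pocket protein p130 known from resting cells, had 2425, 1947 and 1580 counts and was highest in library 1 (adjusted p = 2.12e-12), as was the repressor E2f7 with 110, 64 and 58 (adjusted p = 0.0122). The inhibitor Cdkn1b (p27) was lowest there, with 133, 186 and 171 counts (adjusted p = 0.00221).

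Genes of G2 and mitosis act in the later phases of the cycle. Top2a, which untangles DNA, had 3862, 3425 and 2918 counts, and Mki67, a marker of cycling cells, had 3457, 2874 and 2747. Of the 15 genes, 7 (46.7%) differed between libraries by the chi-square test, beside 22.7% of all genes, and 6 of these were highest in library 1. Their sum was 4429, 4075 and 4095 CPM, so that library 1 was highest for this list as well. Plk1, with 505, 502 and 299 counts, was the called gene with library 2 highest (adjusted p = 9.08e-07), and the 1 gene of the 4 lists that passed the edgeR test, in library 3, where it fell by 0.57 on the log2 scale against the other libraries (adjusted p = 0.0366).

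The E2F word introduced above was found in 18 of the 36 replication genes that have a promoter in the RefSeq table (50%), where the window ran from 250 bases before to 50 after each start. Of all 27025 genes with a promoter, 704 held it (2.61%), and of 8363 detected genes 4.96%. Promoters of the replication genes are rich in G and C, with a median of 63.3% against 53.3% over all genes, and among genes with a window in the middle GC range of the replication genes (56.7% to 66.4%) the share was 4.25%. Genes with several starts were searched in each, on average 1.31 windows for the replication genes and 1.22 for all genes. The 10 genes without a promoter in the table are Ccna2, Ccne2, Gins1, Gins2, Gins4, Gmnn, Mcm4, Pole, Prim2 and Rfc2.

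The word was unevenly spread over the roles. It stood in 6 of 7 licensing promoters (Cdc6, Cdt1, Mcm3, Mcm5, Mcm6 and Mcm7, but not Mcm2), in 4 of 7 polymerase promoters, in 3 of 5 of the cyclin, kinase and E2F genes (Cdk2, E2f2 and E2f3), in 2 of 6 ORC promoters, in 1 of 4 firing promoters and in 1 of 5 of the clamp and its loader. All windows of E2f1, Cdc6 and Mcm7 lay inside the gene bounds of GENCODE M21, so bases before those bounds were not searched. For E2f1, counted as without the word, the window reached to 154569676 on chromosome 2, while the minus-strand gene begins at 154569892. The 24 words in the 18 genes that hold one began between 165 bases before and 40 bases after the RefSeq start. Of them, 8 lay more than 100 bases before the start, 6 within 100 bases before it and 10 after it. With the last base of the word left free, 22 of 36 promoters matched, against 7.65% of all genes, and Mcm10, Fen1, Orc4 and Pola2 were the ones gained.

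**Figure D5:**
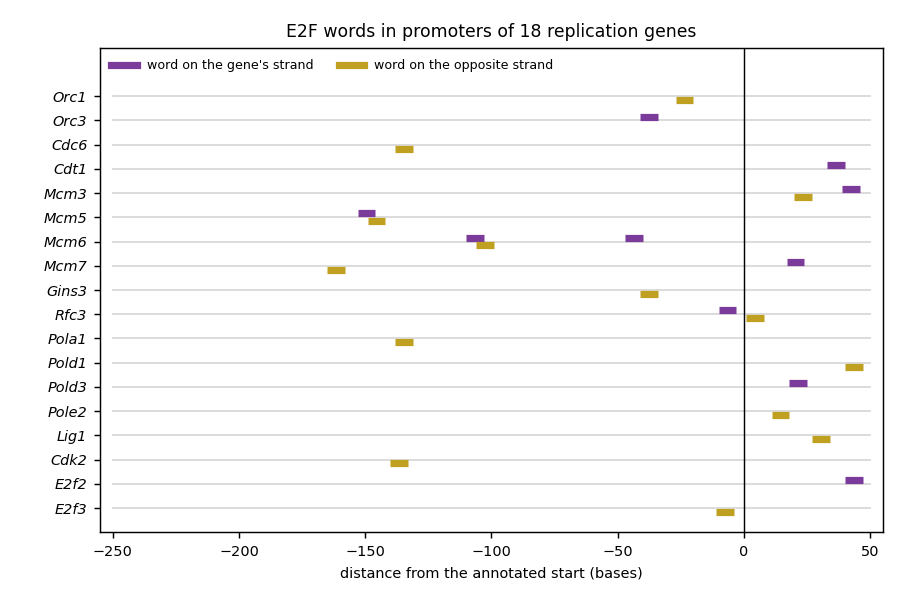
Position of each E2F word relative to the annotated start (0) in the 18 replication genes that hold one, in the window of 250 bases before to 50 after, by strand of the word. Mcm6 holds 3 words, Mcm3, Mcm5, Mcm7 and Rfc3 hold 2 each, and 10 of the 24 words lie after the start.

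Levels of genes with and without the word overlapped. The 18 with it had a median of 174 counts per coding kb (range 31.9 to 837), and the 18 without it 204 (range 16.5 to 530). Of those with the word, 8 were called between libraries by the chi-square test, against 10 without it, beside 22.7% of all genes tested. These are descriptions with no test, and a word is a match of letters, not a site of binding.

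Genes of other phases differed in their words. The E2F word was in 8 of 32 promoters of the other fork and origin genes, in 6 of 22 of the regulators of S phase entry, in 0 of 12 of deoxynucleotide supply and in 1 of 13 of G2 and mitosis. The CHR words TTTGAA and TTCGAA, elements of G2 and mitosis promoters, stood in 10 of 36 replication promoters (27.8%) and in 10 of 13 of the G2 and mitosis genes, against 21.7% of all genes, 16.8% of detected genes and 11.4% in the GC range above. CCAAT stood in 21 of 36 replication promoters (58.3%) and 12 of 13 of G2 and mitosis, against 41.1% of all genes, 43.4% of detected genes and 38.2% in the GC range. Both were searched on either strand in the same window. No word of one set was required to lie apart from a word of another.

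Some replication genes share a start region with a coding gene on the opposite strand. A divergent partner lay within 1 kb for 5 of the 46 genes (10.9%), against 11.5% of detected coding genes, so the share is near that of the background. The pairs were Orc1 with Prpf38a (87 bases apart), Orc3 with Rars2 (13), Mcm4 with Prkdc (466), Gins1 with Abhd12 (659) and Pole with Pxmp2 (120). Prpf38a, a splicing factor, had 431, 419 and 373 counts and did not share the low value of Orc1 in library 2 (chi-square adjusted p = 0.865). Rars2 had 330, 294 and 332 counts (chi-square adjusted p = 0.0484) and, like Orc3, was highest in library 3 as a level in CPM. In the other pairs the gene and its partner were highest in different libraries. Pxmp2 had 8, 4 and 8 counts beside 414, 296 and 266 for Pole.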

How the data were processed

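Poly(A) RNA was sequenced from Treg cells in 3 technical libraries. The deposited tables give unscaled counts of reads for each gene in whole numbers, made by the authors on mm10 with GENCODE M4, per the notes deposited with the tables. The sources used here do not give the aligner, the counting program, strand use or the handling of duplicate reads. No labels say that the libraries came from separate cultures or animals. Symbols, coordinates and lengths came from GENCODE M21 (GRCm38), and promoters from RefSeq (GRCm38.p6). Identifiers without a symbol, 262 of 22457, held 0.136% of counts. CPM was computed on library totals, and counts per coding kb on the longest coding sequence. Intervals are exact 95% Poisson intervals, which like the 3-count limit cover counting error only, since copies of 1 molecule are not independent.

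Libraries were compared by a chi-square test (30 or more summed counts) and by edgeR 4.0.16 (TMM, filterByExpr, quasi-likelihood test, each library against the other 2), with DESeq2 1.42.0 as an alternative, in R 4.3.3, all with Benjamini-Hochberg adjustment over all genes tested. Any of the 46 genes may be named, and of other lists up to 6 with the highest and 4 with the lowest counts per coding kb and any that passed a test. The 46 genes and all lists were chosen with earlier results of these data known. The CCAAT and CHR words, the GC range, the count range, the split by highest library and the divergent pairs were added after the data were seen. Alternatives were library scaling, filters, exon length, word and window, and leaving out each library. Shared 31-mers and exon overlaps mark genes whose counts may be split or mixed.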

Additional observations from a re-analysis of the deposited data

How the results depend on the processing

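With each library left out in turn, the chi-square test called 10 to 17 of the 46 replication genes and 904 to 1466 of all genes. With all libraries, 19 of the 23 called genes were also called under every other scaling and filter tried, Orc6, Gins4, Rfc5 and Ccne1 being the exceptions. The median per coding length was 74.5 counts per kb with union exon length. With exon length the ratio in MCM2-7 was 3.20, in ORC 2.41, in GINS 6.86, in polymerase alpha-primase 7.12 and of Gmnn to Cdt1 5.37, and in RFC it turned round to 0.841; exon length counts every annotated UTR, which coding length leaves out. In the 100 bases before the start, 6 of 36 promoters (16.7%) held the E2F word, against 0.981% of all genes and 1.79% of detected genes. No edgeR or DESeq2 alternative called any of the 46, and DESeq2 called next to no genes at all. The edgeR test was not run without a library, since 1 library against 1 leaves no residual degrees of freedom. No paired analysis was possible because the libraries form 1 group. The depth of about 3 counts per CPM leaves E2f1, E2f3 and Gins3 with 16 to 65 counts a library.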
